A study of Homo sapiens with 22 samples.

Results

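The question addressed here is where 2 human acute myeloid leukaemia lines, MV-4-11 and MOLM-13, differed in their response to 72 h of BRM014. The quantity is the log2 fold change of BRM014 over dimethyl sulfoxide (DMSO, the solvent) in MV-4-11 minus the same log2 fold change in MOLM-13, and it is called the line difference below. Its members are all genes counted, in 8 of the 22 RNA-seq libraries of the series. Each of 4 groups had 2 libraries: MV-4-11 with 1 µM BRM014 for 72 h, MV-4-11 with DMSO, MOLM-13 with 1 µM BRM014 for 72 h, and MOLM-13 with DMSO. The lines come from different donors, and each carries its own KMT2A fusion as well as an internal tandem duplication of FLT3, so a line difference has 1 line on each side. The labels do not give the time in culture of the DMSO libraries. Whether replicates 1 and 2 came from different cultures is not stated, so the spread behind each p-value may be technical.

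BRM014 blocks the ATPase activity of SMARCA4 and SMARCA2, the paired motors of the SWI/SNF complexes, which slide and evict nucleosomes and so keep enhancers and promoters open. In myeloid leukaemia the complex is known for keeping open the enhancers bound by PU.1 and the enhancer cluster of MYC. Several signalling systems also end on such enhancers: interferon acts through STAT and IRF factors, sterol lack through SREBP factors, amino acid lack through ATF4, and growth factor receptors through ERK and STAT5.

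The files listed 28063 gene rows, and the 8 libraries held 15893489 to 20873372 reads assigned to genes, with 15889 to 16695 genes detected. Of these rows, 16794 passed the filter on low counts and were tested, and 11379 had at least 20 reads in each of the 4 groups. All 10 myeloid line markers were detected in all 8 libraries, among them CD33, SPI1 and CEBPA. Their summed level was 1544 and 1555 CPM (reads scaled to the library total) in treated and 1669 and 1657 CPM in DMSO MV-4-11 libraries, against 3307 and 3176 CPM in treated and 2351 and 2479 CPM in DMSO MOLM-13 libraries. Markers of other cell types were at low levels. Of 24 erythroid and megakaryocyte markers, 8 were at 0 in every library, HBA1 among them. The summed level of these 24 was 69.3 and 68.9 CPM with BRM014, against 35.8 and 35.2 CPM with DMSO, in MV-4-11, and 74.0 and 75.8 CPM, against 37.3 and 42.0 CPM, in MOLM-13. EPOR was the highest of them in each group. The 21 lymphoid markers summed to 89.9 to 175.2 CPM, CD4 being the highest in each group, with CD3G, CD8B and DNTT at 0 throughout. The 14 epithelial and fibroblast markers summed to 39.3 and 39.2 CPM with BRM014, against 17.8 and 16.6 CPM with DMSO, in MV-4-11 and to 4.50 CPM or less in each MOLM-13 library, with KRT5 and KRT19 at 0 throughout. The part of these markers in the results was not tested.

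The lines differed in the share of reads that fell outside annotated genes. This share was 13.1 and 13.5% with BRM014 and 14.3 and 13.8% with DMSO in MV-4-11. In MOLM-13 it was 18.2 and 18.4% with BRM014 and 13.2 and 12.4% with DMSO. The treated MOLM-13 libraries stood above the other 6, and the change in MV-4-11 minus that in MOLM-13 came to -6.25 percentage points. At 24 h the share was 12.03% in both treated MV-4-11 libraries and 13.0 and 13.6% in the treated MOLM-13 libraries, so the 72 h MOLM-13 libraries stood above those as well. This shift accompanies every result below, and its part in them was not tested.

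**Figure D1:**
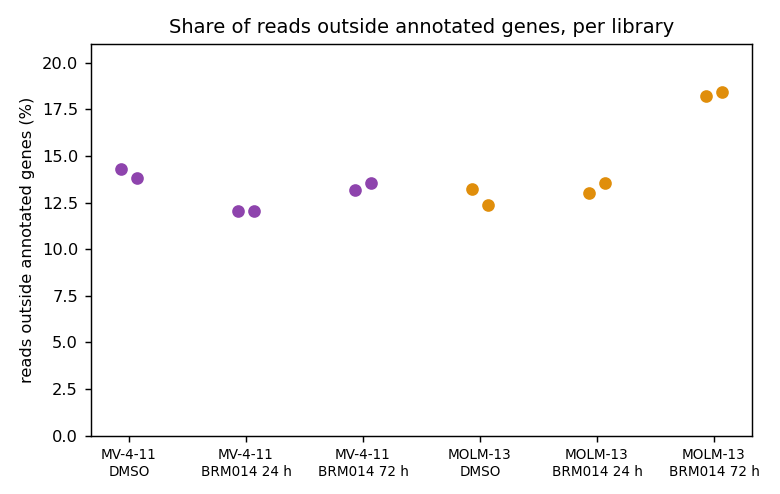
Share of reads outside annotated genes in percent (vertical axis) for each library (points), by line and treatment, with DMSO, 24 h and 72 h in order within each line. The MOLM-13 libraries at 72 h, at 18.2 and 18.4%, lie above all others shown.

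Called genes had a p under 0.05 in edgeR's quasi-likelihood test after Benjamini-Hochberg adjustment over the 16794 genes. By that rule the line difference was called for 6009 genes, or 35.8% of those tested. Among the 11379 genes with at least 20 reads in each of the 4 groups, 47.0% were called. Over all genes tested the line difference was higher for 3497 genes (20.8%) and lower for 2512 (15%). With a size of at least 1 on the log2 scale as well, 1522 genes (9.06%) were higher and 1169 (6.96%) lower. The split between directions depended on the scaling: with library size alone in place of trimmed-mean (TMM) factors it was 2782 higher and 3188 lower. The TMM factors were 1.03 in both treated MV-4-11 libraries and 0.993 and 0.979 in its DMSO libraries, against 1.02 in both treated MOLM-13 libraries and 0.906 and 0.886 in its DMSO libraries. Over the 11379 genes with enough reads, library size alone moved the median line difference by -0.13 and the median effect in MOLM-13 by 0.19 on the log2 scale, so values of that size have a direction that depends on the scaling. In bulk RNA, fewer cells of a kind and less RNA per cell cannot be told apart, in this result and those that follow.

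Most of the response was shared in direction. In MV-4-11, 4771 genes (28.4%) rose and 4382 (26.1%) fell, and in MOLM-13, 5083 (30.3%) rose and 4942 (29.4%) fell. Of 6969 genes called in both lines, 6211 (89.1%) moved the same way. The median size of the effect was 0.62 in MV-4-11 and 0.80 in MOLM-13 on the log2 scale. Across genes, which are not independent replicates, the effects of the 2 lines had a Pearson r of 0.48 and a Spearman rho of 0.54, and they share no library. In the plot of the effects the called genes form bands on either side of the diagonal, with the far corners thinly filled.

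**Figure D2:**
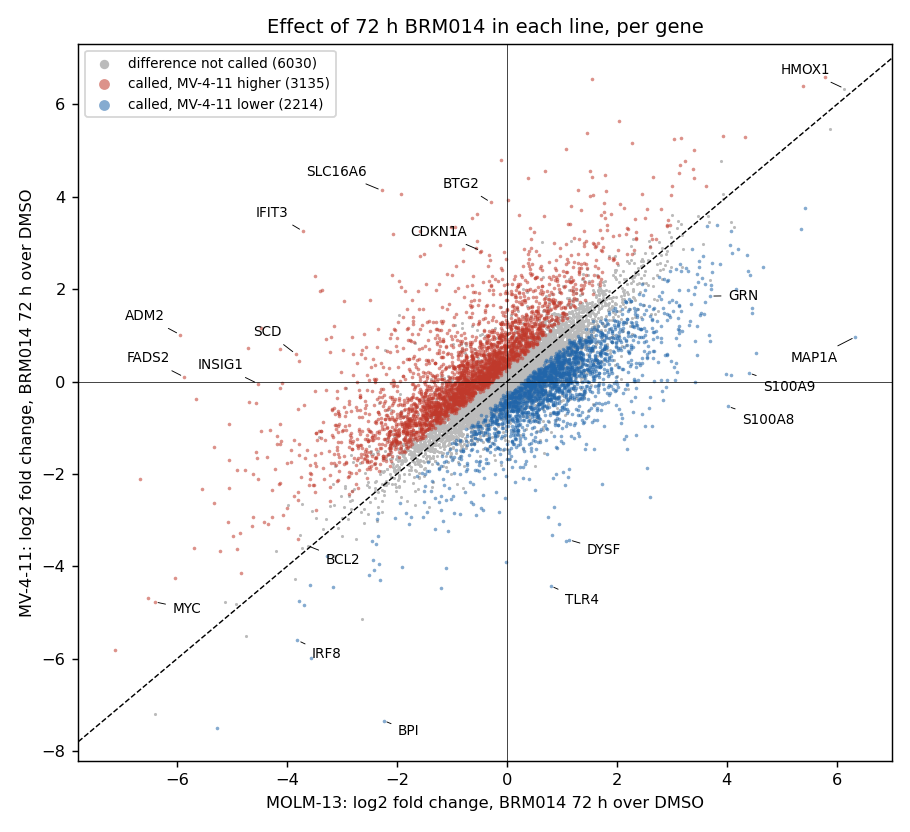
Log2 fold change of BRM014 at 72 h over DMSO in MV-4-11 (vertical axis) against MOLM-13 (horizontal axis) for the 11379 genes with at least 20 reads in each of the 4 groups. Red points are genes called with a higher line difference, blue points those with a lower one, grey points the rest, and the dashed line marks equal effects. IFIT3 and SLC16A6 lie in the upper left, TLR4 and DYSF in the lower right, and HMOX1 and BCL2 near the diagonal.

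The called genes can be sorted by what each line did. Of the 3497 with a higher line difference, 1132 fell in both lines, 746 fell in MOLM-13 with no call in MV-4-11, 572 rose in MV-4-11 with no call in MOLM-13, 558 rose in both, and 455 rose in MV-4-11 and fell in MOLM-13. Of the 2512 with a lower one, 855 rose in MOLM-13 with no call in MV-4-11, 691 rose in both, 421 fell in MV-4-11 with no call in MOLM-13, 303 fell in MV-4-11 and rose in MOLM-13, and 212 fell in both. Opposite responses were thus the smaller share, 13% of the higher and 12.1% of the lower calls.

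Treatment did not bring the levels in the lines closer together. For the 11379 genes with enough reads, the log2 ratio of mean CPM, MV-4-11 over MOLM-13, had an SD across genes of 1.02 with BRM014 and 0.96 with DMSO. Its size was larger with BRM014 for 6046 of these genes (53.1%), and 2456 genes differed by at least 1 on the log2 scale with BRM014, against 2073 with DMSO. MV-4-11 stood above MOLM-13 for 5796 of the 11379 with BRM014 and for 5155 with DMSO.

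The interferon response genes moved in opposite directions in the lines, with large line differences. They encode antiviral proteins and are switched on by interferon through a promoter element called the interferon-stimulated response element. Of 38 such genes tested, 28 had a higher line difference and 2 a lower one. Their median was 3.18 on the log2 scale, against 0.02 over all genes tested, of which 20.8% were higher and 15% lower. In MV-4-11, 23 rose and 6 fell. In MOLM-13, 4 rose and 24 fell. Only 22 of the 38 had at least 20 reads in all 4 groups, so the counts and the median rest partly on genes with few reads. The genes named here are those with enough reads.

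IFIT3 binds viral RNA with its IFIT partners and had the largest line difference of any gene with enough reads. It stood at 14.9 and 14.2 CPM with BRM014 and 1.29 and 1.71 CPM with DMSO in MV-4-11, against 2.61 and 4.005 CPM with BRM014 and 45.7 and 41.1 CPM with DMSO in MOLM-13. The groups did not overlap within either line, and the direction was opposite. Its log2 fold change was 3.26 in MV-4-11 and -3.72 in MOLM-13, and the line difference was 6.98 ± 0.27 (SE, 2 libraries a group, adjusted p = 1.2e-13, edgeR). The order of the lines turned over: the ratio of MV-4-11 to MOLM-13 was 4.39 with BRM014 and 0.0346 with DMSO.

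OASL, an antiviral sensor cofactor of the oligoadenylate synthetase family, had 2.77 and 2.84 CPM with BRM014 and 0.448 and 0.685 CPM with DMSO in MV-4-11. In MOLM-13 it had 1.06 and 1.40 CPM with BRM014 and 13.0 and 14.8 CPM with DMSO. The line difference was 5.77 ± 0.44 (SE, adjusted p = 3.0e-09, edgeR), at low levels throughout. IFI6, a membrane protein that limits viral replication, rose to 61.7 and 58.0 CPM, against 17.4 and 18.4 CPM with DMSO, in MV-4-11 and fell to 1.64 and 1.92 CPM, against 13.0 and 15.1 CPM, in MOLM-13. Its line difference was 4.71 ± 0.28 (SE, adjusted p = 9.4e-11). ISG15, a ubiquitin-like modifier, stood at 28.0 and 27.2 CPM with BRM014 and 6.66 and 7.44 CPM with DMSO in MV-4-11, against 15.7 and 14.0 CPM with BRM014 and 42.9 and 49.2 CPM with DMSO in MOLM-13. Its line difference of 3.59 ± 0.23 (SE, adjusted p = 1.9e-10) was again made of a rise in MV-4-11 and a fall in MOLM-13.

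Of the factors of the pathway, IRF9, named after its values were seen, rose by 2.42 in MV-4-11 and by 0.90 in MOLM-13 on the log2 scale. STAT2 had a log2 fold change of 0.04 in MV-4-11, which was not called, and rose by 0.75 in MOLM-13, so its line difference of -0.71 was 1 of the 2 lower ones, the other being IFITM2. At 24 h, with the same DMSO libraries, the IFIT3 line difference was 4.12, and in THP-1, whose libraries enter neither side, 72 h of BRM014 raised IFIT3 by 2.13 and the list showed 16 genes up and 11 down (30.9% and 28% of all genes tested rose and fell there).

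The promoters of the leading genes are shown because they hold the element by which interferon is known to act on them. Sequences are RefSeq promoters of GRCh38.p14, from 250 bases before to 50 bases after the start, 5′ to 3′ on the gene's strand, with matches to the element in capitals, searched as GAAA, any 2 bases and GAAA, or on the other strand as TTTC, any 2 bases and TTTC. IFIT3 (chr10:89327747-89328046, plus strand) held matches at positions -156 and -122 relative to the start. Another RefSeq promoter of IFIT3, not shown (chr10:89332279-89332578, plus strand), held 2 matches, at -94 and -51. IFI6 (chr1:27672143-27672442, minus strand) held 3 between -156 and -93, and ISG15 (chr1:1013247-1013546, plus strand) held 2 that overlap each other, at -113 and -107.
IFIT3: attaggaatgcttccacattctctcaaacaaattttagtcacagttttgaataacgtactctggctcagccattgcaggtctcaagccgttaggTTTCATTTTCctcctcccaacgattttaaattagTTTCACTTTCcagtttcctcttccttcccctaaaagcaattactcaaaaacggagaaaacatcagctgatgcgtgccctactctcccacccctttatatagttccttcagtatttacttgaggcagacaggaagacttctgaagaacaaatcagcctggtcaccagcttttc
IFI6: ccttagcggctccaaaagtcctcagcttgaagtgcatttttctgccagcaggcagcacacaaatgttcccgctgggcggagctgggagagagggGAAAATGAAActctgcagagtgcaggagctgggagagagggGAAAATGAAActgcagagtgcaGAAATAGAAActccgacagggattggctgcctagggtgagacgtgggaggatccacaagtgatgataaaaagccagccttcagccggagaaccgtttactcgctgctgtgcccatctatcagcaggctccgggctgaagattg
ISG15: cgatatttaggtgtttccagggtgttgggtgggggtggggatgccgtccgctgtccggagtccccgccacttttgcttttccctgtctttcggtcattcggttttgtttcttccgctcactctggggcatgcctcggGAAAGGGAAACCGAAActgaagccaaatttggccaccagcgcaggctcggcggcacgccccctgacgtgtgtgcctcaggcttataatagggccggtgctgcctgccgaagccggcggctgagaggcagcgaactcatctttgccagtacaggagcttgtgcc

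Of the 28 interferon response genes with a RefSeq promoter, 20 (71.4%) held this element, against 4.38% of all 27305 promoter symbols and 4.10% of the tested genes that have one. Among the list's genes with the element, 16 of 20 had a higher line difference, with a median of 4.03, and among those without it 5 of 8 had one, with a median of 1.27. These shares describe letters in a window, not binding, and the motif was chosen after the results were seen.

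The remaining genes with the largest higher line differences came from several systems. ADM2 encodes a peptide of the calcitonin family, and it had 5.32 and 6.23 CPM with BRM014 and 2.97 and 2.74 CPM with DMSO in MV-4-11, against 0.725 and 0.26 CPM with BRM014 and 31.1 and 31.5 CPM with DMSO in MOLM-13. The line difference was 6.97 ± 0.43 (SE, adjusted p = 1.5e-10), and 7.89 without replicate 1 of treated MOLM-13. SLC16A6, a transporter of the monocarboxylate family, had 159 and 151 CPM with BRM014 and 6.66 and 10.8 CPM with DMSO in MV-4-11, against 0.242 and 0.832 CPM with BRM014 and 2.49 and 2.70 CPM with DMSO in MOLM-13. Nearly all of its reads thus came from treated MV-4-11 cells. The line difference of 6.42 ± 0.54 became 5.77 without replicate 1 and 7.53 without replicate 2 of treated MOLM-13. GPR84, a receptor for medium-chain fatty acids, and PLXND1, a semaphorin receptor, likewise moved in opposite directions. GPR84 rose by 4.06 in MV-4-11 and fell by 1.92 in MOLM-13, and PLXND1 rose by 1.97 and fell by 3.37. MTSS1L and ROPN1L had the same opposite pattern, with line differences of 5.27 and 4.40, the second at no more than 7.24 CPM in any library. RGS16, which shortens G protein signals, had a line difference of 5.64, and CHST2, a sulfotransferase, 5.45. RGS16 rose by 1.16 in MV-4-11 and fell by 4.48 in MOLM-13, and CHST2 rose by 0.73 and fell by 4.72.

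**Figure D3:**
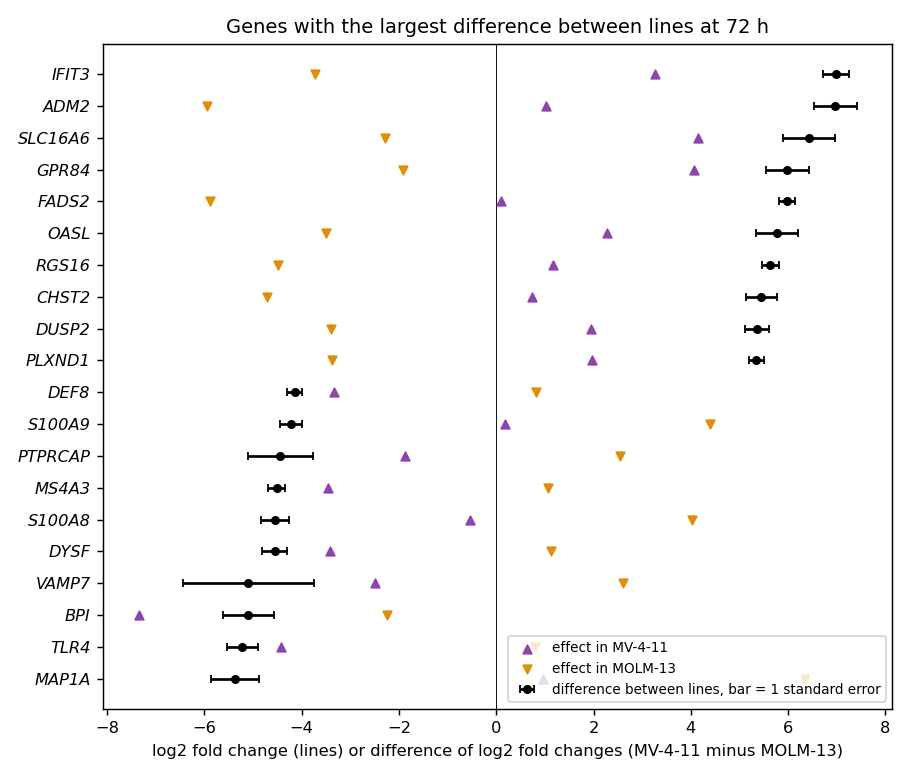
The 10 genes with the largest higher and the 10 with the largest lower line difference among those with at least 20 reads in each group (rows), with the line difference and its standard error (black), the log2 fold change in MV-4-11 (upward triangles) and that in MOLM-13 (downward triangles). IFIT3 is at the top with 6.98, and MAP1A at the bottom with -5.37.

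Most genes of sterol synthesis fell in MOLM-13, and in MV-4-11 they were split between rises, falls and no call. Cells make cholesterol from acetyl-CoA through the mevalonate pathway, whose genes are switched on together by SREBP factors, and INSIG1 is both a target and a brake of those factors. Of 24 cholesterol synthesis genes tested, 22 had a higher line difference and none a lower one, with a median of 2.095. Called members made up 91.7%, against 47.0% of all genes with enough reads. No gene was lower by edgeR or DESeq2, and 0 were lower at an unadjusted p under 0.05. In MV-4-11, 4 rose and 8 fell, with a median of -0.02. In MOLM-13, 22 fell and none rose, with a median of -1.85. The 2 with no call were PMVK and SREBF2, the gene of the SREBP factor itself.

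INSIG1 (chr7:155297776-155310235, plus strand, GENCODE v29) stood at 210.2 and 211 CPM with BRM014 and 212 and 223 CPM with DMSO in MV-4-11. In MOLM-13 it stood at 31.4 and 33.0 CPM with BRM014 and 722 and 766 CPM with DMSO. The MV-4-11 libraries were close to one another in both groups, and the MOLM-13 groups were far apart. The line difference was 4.48 ± 0.10 (SE, adjusted p = 8.0e-17, edgeR), an adjusted p shared with SCD and the smallest of the genes named. HMGCS1, which makes HMG-CoA at the head of the pathway, had 183 and 178 CPM with BRM014 and 210.2 and 206 CPM with DMSO in MV-4-11, and 56.6 and 56.2 CPM with BRM014 and 489 and 469.5 CPM with DMSO in MOLM-13. MVD, a later enzyme of the mevalonate steps, rose by 1.02 in MV-4-11 and fell by 1.72 in MOLM-13. MSMO1, a sterol methyl oxidase, had a log2 fold change of 0.15 in MV-4-11, which was not called, and fell by 2.54 in MOLM-13.

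Genes of fatty acid synthesis were counted with the LXR and PPARG lipid genes, and FADS2 is in no list. Of those 25 lipid genes, 10 had a higher and 4 a lower line difference. That was 56% called, against 35.8% of all genes tested and 47.0% of those with enough reads. FADS2, which puts double bonds into polyunsaturated fatty acids, had 545 and 602 CPM with BRM014 and 537 and 534 CPM with DMSO in MV-4-11. In MOLM-13 it had 8.65 and 5.88 CPM with BRM014 and 414 and 445 CPM with DMSO, and the line difference was 5.98 ± 0.16 (SE, adjusted p = 1.1e-15). SCD, the stearoyl-CoA desaturase, rose by 0.60 in MV-4-11 and fell by 3.85 in MOLM-13. FASN, the fatty acid synthase, fell in both, by 1.07 in MV-4-11 and by 4.47 in MOLM-13. SREBF1, the gene of the SREBP factor for fatty acid synthesis, rose by 0.92 in MV-4-11 and fell by 1.01 in MOLM-13. At 24 h the line differences of INSIG1 and FADS2 were 2.74 and 1.94. Both lines were lower on this list at 24 h, with 20 of the 24 cholesterol genes down in MV-4-11 and 23 down in MOLM-13, where 22.4% and 23.5% of all genes tested fell. THP-1 lost the same kind of genes at 72 h, with 20 of the 24 down and 1 up.

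Amino acid and stress genes that ATF4 is known to drive, the integrated stress response, had 17 of 24 members with a higher line difference and 1 lower. The median was 1.67, and 75% were called, against 35.8% of all genes tested. The lower one, VLDLR, lost its call with no filter on low counts and without replicate 1 of treated MV-4-11, either MV-4-11 DMSO replicate, replicate 1 of treated MOLM-13 or replicate 2 of MOLM-13 DMSO. In MV-4-11, 10 rose and 9 fell, and in MOLM-13, 4 rose and 18 fell. SLC7A5, the light chain of the leucine transporter, had 217 and 227 CPM with BRM014 and 290.5 and 317 CPM with DMSO in MV-4-11. In MOLM-13 it had 22.5 and 21.8 CPM with BRM014 and 553 and 598 CPM with DMSO. The line difference was 4.25 ± 0.12 (SE, adjusted p = 1.9e-15). DDIT4, an inhibitor of the mTORC1 kinase, rose by 0.96 in MV-4-11 and fell by 3.20 in MOLM-13, and PSAT1, of serine synthesis, fell by 1.19 and 4.19. ATF3, a stress factor that acts downstream of ATF4, had a log2 fold change of 0.60 in MV-4-11, which was not called, and fell by 2.81 in MOLM-13. ATF4 itself, named after its values were seen, fell by 0.41 in MV-4-11 and by 1.60 in MOLM-13. The element of C/EBP and ATF4, TGATGNAA or TTNCATCA, was in the promoters of 6 of 18 of these genes (33.3%). It was in 4.46% of all promoter symbols and 2.87% of the tested genes with one. The list holds genes known as ATF4 targets, so this share describes the list and is no test of the line difference. The median line difference was 2.16 with it and 2.22 without it.

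Of 24 unfolded protein and heat shock genes, 19 had a higher line difference (79.2% called, against 35.8% of all genes tested). None was lower by edgeR or DESeq2, nor by edgeR at an unadjusted p under 0.05 (0 genes). With library size alone 15 were higher. XBP1, the transcription factor of the unfolded protein response, had 1745 and 1796 CPM with BRM014 and 206 and 209.8 CPM with DMSO in MV-4-11, against 1302 and 1274 CPM with BRM014 and 912 and 987 CPM with DMSO in MOLM-13. It rose by 3.09 in MV-4-11 and by 0.44 in MOLM-13, and its DMSO level was lower in MV-4-11. EDEM1, which sends misfolded glycoproteins to degradation, rose by 0.67 in MV-4-11 and fell by 0.83 in MOLM-13.

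MYC and genes of ribosome building fell in both lines, most of them further in MOLM-13. MYC, the transcription factor that drives ribosome building, had 37.1 and 40.8 CPM with BRM014 and 1049 and 1080.5 CPM with DMSO in MV-4-11. In MOLM-13 it had 8.55 and 9.67 CPM with BRM014 and 744 and 809 CPM with DMSO. It fell by 4.77 in MV-4-11 and by 6.41 in MOLM-13, and the line difference was 1.64 ± 0.12 (SE, adjusted p = 2.4e-09). In treated cells the ratio of MV-4-11 to MOLM-13 was 4.27, against 1.37 in DMSO cells. At 24 h the line difference was 0.43.

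Of 32 genes of MYC and ribosome biogenesis, 28 had a higher line difference (87.5% called, against 47.0% of all genes with enough reads). None was lower by edgeR or DESeq2, nor by edgeR at an unadjusted p under 0.05 (0 genes). The median line difference was 0.83. In MV-4-11, 31 fell, with a median of -1.27, and in MOLM-13 all 32 fell, with a median of -2.08. SRM, which makes spermidine, had 74.9 and 72.1 CPM with BRM014 and 178 and 175 CPM with DMSO in MV-4-11, and 15.9 and 13.9 CPM with BRM014 and 203 and 234 CPM with DMSO in MOLM-13. Its difference between the lines was 2.60 ± 0.15 (SE, adjusted p = 3.2e-11). ODC1, the first enzyme of polyamine synthesis, was the exception that rose in MV-4-11, by 0.28, and it fell by 2.15 in MOLM-13. LYAR, a nucleolar protein, fell by 1.25 and 2.74.

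The E-box CACGTG, which reads the same on both strands and is the best-known site of MYC, was in 14 of 26 promoters of this list (53.9%), against 8.78% of all promoter symbols and 12.02% of the tested genes with one. The list is named for MYC, so this share describes the list and is no test of the line difference. The line difference was higher for 13 of the 14 genes with the E-box and for 10 of the 12 without it. The RefSeq promoters of SRM (chr1:11059969-11060268, minus strand, match at -199), LYAR (chr4:4289972-4290271, minus strand, match at -64) and ODC1 (chr2:10447963-10448262, minus strand, matches at -29 and 5) show it, in capitals.
SRM: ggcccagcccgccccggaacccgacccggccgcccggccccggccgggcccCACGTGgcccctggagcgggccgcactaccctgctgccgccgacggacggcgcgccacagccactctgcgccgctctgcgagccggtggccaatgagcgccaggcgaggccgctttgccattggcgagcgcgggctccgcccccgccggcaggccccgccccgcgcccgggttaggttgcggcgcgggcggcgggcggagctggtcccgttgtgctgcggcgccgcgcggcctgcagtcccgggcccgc
LYAR: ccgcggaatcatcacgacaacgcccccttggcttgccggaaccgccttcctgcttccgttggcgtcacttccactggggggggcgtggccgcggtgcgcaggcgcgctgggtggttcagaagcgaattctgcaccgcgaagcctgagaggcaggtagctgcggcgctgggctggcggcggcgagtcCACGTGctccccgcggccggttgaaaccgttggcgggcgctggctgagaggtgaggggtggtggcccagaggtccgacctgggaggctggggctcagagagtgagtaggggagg
ODC1: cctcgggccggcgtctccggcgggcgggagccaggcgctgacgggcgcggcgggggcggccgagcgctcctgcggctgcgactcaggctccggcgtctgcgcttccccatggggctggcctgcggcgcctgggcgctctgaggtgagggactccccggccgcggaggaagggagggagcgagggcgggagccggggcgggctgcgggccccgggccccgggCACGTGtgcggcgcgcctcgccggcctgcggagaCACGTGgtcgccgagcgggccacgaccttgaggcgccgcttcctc

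The cytosolic ribosomal proteins fell in both lines as well. All 46 fell, with a median of -1.40 in MV-4-11 and -1.61 in MOLM-13, and 1 of 46, RPS12, had a called line difference (0.48 ± 0.18, adjusted p = 0.044). That call was lost without any 1 of the 8 libraries. The count did depend on the fit: 12 were higher and 2 lower with no filter on low counts, and 14 higher and 2 lower in a fit to the 12 libraries of these lines, and 13 higher and 3 lower in a fit to the 8 libraries alone. With library size alone none was higher and 2 were lower.

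Of 32 DNA replication genes, 24 had a higher line difference (75% called, against 47.0% of all genes with enough reads). None was lower by edgeR or DESeq2, nor by edgeR at an unadjusted p under 0.05 (0 genes). Library size alone gave 21 higher and 2 lower, and the 8 libraries alone gave 1 lower. In MV-4-11, 31 fell and 1 rose, and in MOLM-13 all 32 fell. The gene that rose was RRM2, a subunit of the ribonucleotide reductase, which had 436 and 394 CPM with BRM014 and 233 and 238 CPM with DMSO in MV-4-11, against 109 and 120.3 CPM with BRM014 and 269.9 and 283 CPM with DMSO in MOLM-13. CDC6, which loads the replicative helicase, fell by 1.15 in MV-4-11 and by 2.68 in MOLM-13. Of 30 mitotic genes, all fell in MV-4-11, with a median of -0.94, and 28 in MOLM-13, with a median of -1.10. Of the 30, 12 had a higher and 1 a lower line difference, 43.3% against 47.0% of all genes with enough reads. The lower one, KIF20A, was not called with a replicate block, nor without either treated MV-4-11 library, replicate 1 of MV-4-11 DMSO or replicate 2 of treated MOLM-13. The largest higher one was that of AURKA, a mitotic kinase, at 0.86.

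Of 23 G1 cyclins, CDKs and inhibitors, 14 had a higher and 1 a lower line difference. The called share was 65.2%, against 35.8% of all genes tested and 47.0% of those with enough reads. In MV-4-11, 9 rose and 6 fell, and in MOLM-13, 3 rose and 12 fell. CDKN1A (p21) had 243 and 252 CPM with BRM014 and 31.8 and 37.7 CPM with DMSO in MV-4-11, against 119 and 119 CPM with BRM014 and 151 and 179 CPM with DMSO in MOLM-13. This gave a line difference of 3.30 ± 0.12 (SE, adjusted p = 4.1e-14), and 2.02 at 24 h. CDKN2C (p18), which holds back CDK4 and CDK6, rose by 2.12 in MV-4-11 and had a log2 fold change of -0.01 in MOLM-13. CCND1, cyclin D1, rose by 2.42 in MV-4-11, to 165 and 179 CPM against 32.2 and 31.8 CPM. It stood at no more than 5.97 CPM in the 72 h and DMSO MOLM-13 libraries. At 24 h it had 16.3 and 17.3 CPM in treated MOLM-13, and its line difference was -0.77, against 2.52 at 72 h. BTG2, an antiproliferative gene and p53 target, had 275 and 261 CPM with BRM014 and 17.9 and 18.4 CPM with DMSO in MV-4-11. Its level in MOLM-13 was 26.8 and 23.1 CPM with BRM014 and 27.8 and 33.8 CPM with DMSO, and the line difference was 4.18 ± 0.23. Over the 30 p53 targets tested, 15 were higher and 3 lower (60% called), with a median of 0.31, against 0.02 over all genes tested. MDM2, the classical feedback target, named after its values were seen, differed by 0.39.

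In the BCL2 family 9 of 16 genes had a higher line difference (56.25% called, against 35.8% of all genes tested). None was lower by edgeR or DESeq2, with 1 lower by edgeR at an unadjusted p under 0.05. With library size alone, in the 12 libraries or in the 8 alone, 1 was lower. BCL2 itself, which blocks apoptosis, fell by 3.56 in MV-4-11 and fell by 3.63 in MOLM-13. The difference between lines came to 0.07 ± 0.10, with an adjusted p of 0.68. MCL1, a survival protein of the same family, rose to 1041 and 1005 CPM in MV-4-11, against 213 and 214 CPM with DMSO, and to 657 and 613 CPM in MOLM-13, against 285 and 284 CPM. PMAIP1 (NOXA), a partner that inactivates MCL1, fell by 0.86 in MV-4-11 and by 2.53 in MOLM-13.

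**Figure D4:**
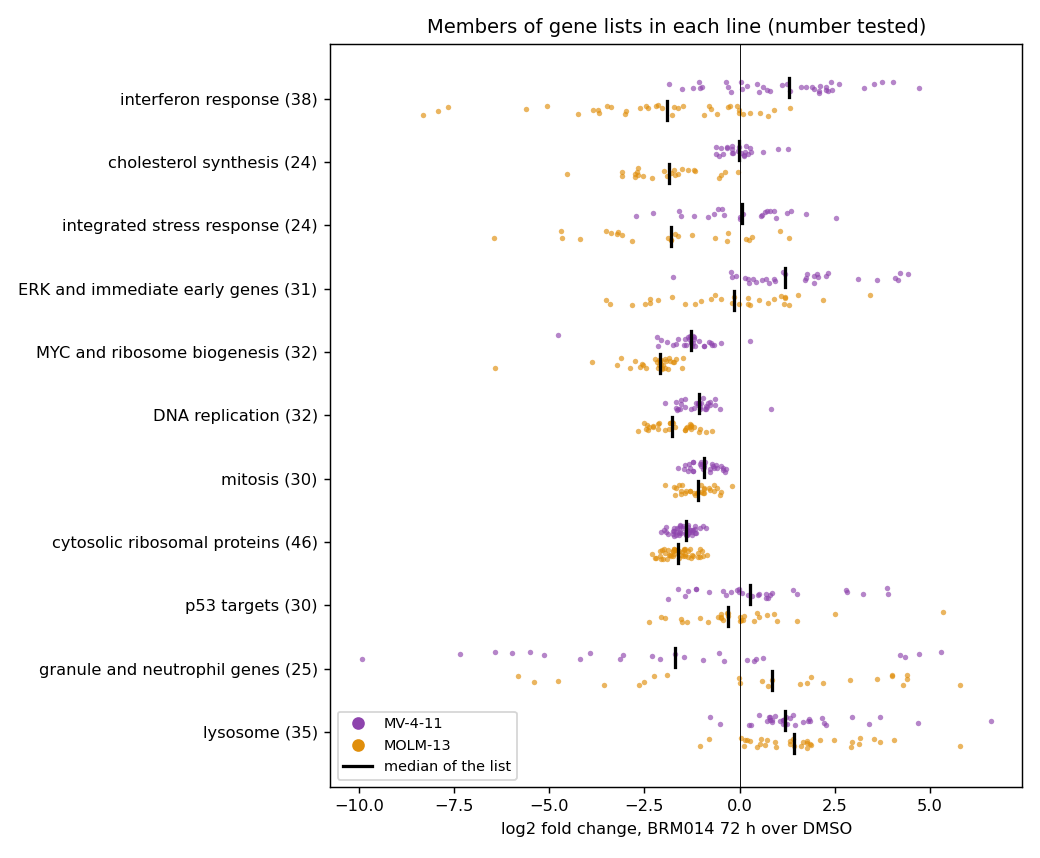
Log2 fold change of BRM014 at 72 h over DMSO (horizontal axis) of each tested member of 11 gene lists (rows), in MV-4-11 (upper points of each row) and MOLM-13 (lower points), with the median of each list as a black bar. The medians lie furthest apart for the interferon response, 1.29 in MV-4-11 and -1.91 in MOLM-13, and close together for the cytosolic ribosomal proteins.

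Immediate early genes and feedback genes of ERK signalling had mostly higher line differences. Of 31, 21 had a higher and 2 a lower line difference, with a median of 1.51, and 27 had at least 20 reads in all 4 groups. That was 74.2% called, against 35.8% of all genes tested and 47.0% of those with enough reads. In MV-4-11, 19 rose and 1 fell, and in MOLM-13, 9 rose and 12 fell. The 2 lower ones, FOS and DUSP1, became 1 without replicate 2 of treated or of DMSO MV-4-11. DUSP2, a nuclear phosphatase of ERK, had 45.8 and 49.8 CPM with BRM014 and 12.7 and 11.99 CPM with DMSO in MV-4-11, against 3.67 and 2.55 CPM with BRM014 and 27.6 and 38.7 CPM with DMSO in MOLM-13. Its difference between the lines was 5.36 ± 0.25 (SE, adjusted p = 1.7e-12), against 0.96 at 24 h. EGR1, an immediate early transcription factor, rose in both lines, by 4.16 in MV-4-11 and by 1.30 in MOLM-13. JUND, a member of AP-1, rose by 1.14 in MV-4-11 and fell by 2.34 in MOLM-13, where its DMSO libraries differed from each other, at 811 and 1328 CPM.

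Targets of FLT3 and STAT5 were mixed, with 11 of 19 higher and 3 lower, and 14 of the 19 had at least 20 reads in all 4 groups. The called share was 73.7%, against 35.8% of all genes tested and 47.0% of those with enough reads. PIM1, a STAT5-driven kinase, had 3.68 and 5.16 CPM with BRM014 and 2.01 and 1.81 CPM with DMSO in MV-4-11, against 96.0 and 94.0 CPM with BRM014 and 252 and 302 CPM with DMSO in MOLM-13. CISH, a STAT5-driven feedback inhibitor, went the other way. It had 5.15 and 4.40 CPM with BRM014 and 7.33 and 6.31 CPM with DMSO in MV-4-11, against 379 and 365 CPM with BRM014 and 88.3 and 100.3 CPM with DMSO in MOLM-13. The line difference of CISH was -2.49 ± 0.16 (SE, adjusted p = 2.9e-10). SOCS1, another such inhibitor, had a line difference of 2.38. FLT3 rose by 0.24 in MV-4-11 and fell by 0.53 in MOLM-13.

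Genes of granules and of the neutrophil line had more lower than higher line differences. Of 25 tested, 12 had a lower line difference and 1 a higher one, with a median of -2.41. Over all genes tested 15% were lower and 20.8% higher, with a median of 0.02. Only 15 of the 25 had at least 20 reads in all 4 groups, so the median rests partly on genes with few reads. In MV-4-11, 5 rose and 15 fell, and in MOLM-13, 12 rose and 8 fell. S100A8 and S100A9 together form calprotectin, the most abundant protein pair of the neutrophil cytosol. S100A9 (chr1:153357854-153361027, plus strand, GENCODE v29) had 316 and 309 CPM with BRM014 and 272 and 278 CPM with DMSO in MV-4-11. Its level in MOLM-13 was 113 and 119 CPM with BRM014 and 5.04 and 5.97 CPM with DMSO. The log2 fold change was 0.18 in MV-4-11, which was not called, and 4.40 in MOLM-13, and the line difference was -4.21 ± 0.23 (SE, adjusted p = 1.9e-11). The ratio of MV-4-11 to MOLM-13 was 2.69 with BRM014 and 49.9 with DMSO. S100A8 fell by 0.54 in MV-4-11 and rose by 4.02 in MOLM-13. At 24 h the pattern differed: in MV-4-11 S100A9 had fallen by 3.04 and S100A8 by 3.60. In MOLM-13 S100A9 had risen by 0.79 at 24 h, and S100A8 had a log2 fold change of 0.27, which was not called.

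BPI, a granule protein that kills Gram-negative bacteria, had 0.679 and 0.557 CPM with BRM014 and 98.0 and 104 CPM with DMSO in MV-4-11. Its level in MOLM-13 was 0.821 and 0.936 CPM with BRM014 and 4.25 and 4.12 CPM with DMSO. It fell in both lines to about the same low level, and the line difference of -5.10 ± 0.53 (SE, adjusted p = 2.1e-07) came with the higher DMSO level in MV-4-11. RNASE2, an eosinophil granule ribonuclease, moved in opposite directions, with 56.5 and 61.0 CPM with BRM014 and 159 and 165 CPM with DMSO in MV-4-11, against 646 and 734 CPM with BRM014 and 236 and 226 CPM with DMSO in MOLM-13. MS4A3, a surface protein of granulocyte and monocyte precursors, fell by 3.45 in MV-4-11 and rose by 1.06 in MOLM-13. CSF3R, the receptor of G-CSF, fell by 2.09 in MV-4-11 and rose by 0.84 in MOLM-13. The row MIR223, named for the microRNA of granulocytes and annotated as a microRNA gene in GENCODE v29, had a line difference of -3.65 at no more than 12.4 CPM. A poly(A) library of this kind does not measure the mature microRNA. MPO, myeloperoxidase, named after its values were seen, fell by 5.51 in MV-4-11 and by 4.76 in MOLM-13, and its line difference of -0.76 was not called.

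**Figure D5:**
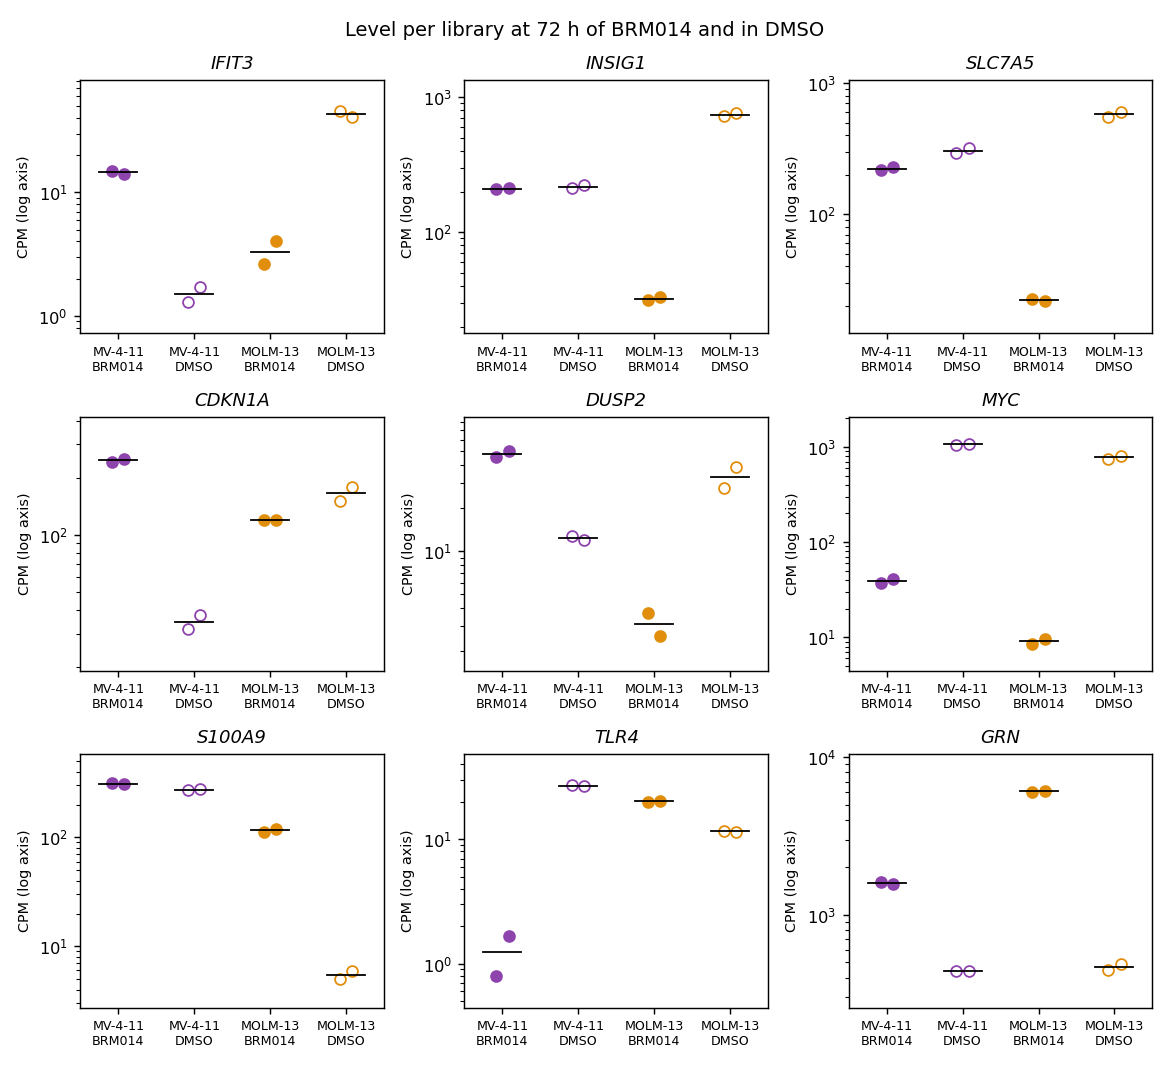
Level in CPM on a log axis (vertical) of 9 genes in each of the 8 libraries, with treated cells (filled points) left of DMSO cells (open points) in each line and a bar at the mean. IFIT3 and CDKN1A move in opposite directions in the 2 lines, INSIG1 and S100A9 move in MOLM-13, TLR4 falls in MV-4-11, and MYC and GRN move the same way in both by different amounts.

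Some other myeloid genes had lower line differences with a fall in MV-4-11. TLR4, the receptor of bacterial lipopolysaccharide and a PU.1 target, had 0.792 and 1.67 CPM with BRM014 and 27.1 and 27.0 CPM with DMSO in MV-4-11, against 19.96 and 20.4 CPM with BRM014 and 11.8 and 11.5 CPM with DMSO in MOLM-13. This gave a line difference of -5.22 ± 0.32 (SE, adjusted p = 1.1e-10), and -5.87 without replicate 2 of treated MV-4-11. DYSF, a membrane repair protein present in monocytes, and DEF8 had the same pattern, falling by 3.43 and 3.33 in MV-4-11 and rising by 1.13 and 0.81 in MOLM-13. CYBB, the core of the phagocyte oxidase, fell by 4.05 in MV-4-11 and by 1.10 in MOLM-13. Yet the 36 PU.1 targets as a list split evenly, 12 higher and 12 lower. Called members made up 66.7%, against 35.8% of all genes tested and 47.0% of those with enough reads. FCER1G, a signalling chain of Fc receptors, had a line difference of 2.95. SPI1, the gene of PU.1, fell by 0.89 in MV-4-11 and by 0.87 in MOLM-13 (line difference -0.02 ± 0.16, not called). CEBPA, the granulocyte factor, rose by 1.03 in both (line difference 0.00, not called). IRF8, a monocyte factor, fell to 5.26 and 5.37 CPM in MV-4-11, against 252 and 266 CPM with DMSO, and to 39.0 and 45.6 CPM in MOLM-13, against 585 and 603 CPM.

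MAP1A, a microtubule-binding protein, had the largest lower line difference through a rise in MOLM-13. It had 8.26 and 10.4 CPM with BRM014 and 4.59 and 4.94 CPM with DMSO in MV-4-11, against 89.2 and 88.7 CPM with BRM014 and 0.851 and 1.35 CPM with DMSO in MOLM-13. The difference between lines came to -5.37 ± 0.49 (SE, adjusted p = 4.0e-08). LINC00482, a noncoding RNA, fell by 2.21 in MV-4-11 and rose by 1.72 in MOLM-13. PTPRCAP fell by 1.88 in MV-4-11 and rose by 2.55 in MOLM-13, but all of its exon sequence overlaps CORO1B on the same strand, so its counts are uncertain. VAMP7 is uncertain as well. It had 1.87 CPM in both treated and 1.51 and 19.5 CPM in the DMSO MV-4-11 libraries, and 2.32 and 20.3 CPM in the treated and 2.81 and 0.853 CPM in the DMSO MOLM-13 libraries. Its line difference of -5.10 became -2.31 without replicate 2 of MV-4-11 DMSO and -2.82 without replicate 2 of treated MOLM-13, neither called. It stayed called without replicate 1 of those groups (-5.98 and -5.94) and without replicate 1 or 2 of MOLM-13 DMSO (-6.20 and -4.50).

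Lysosomal genes rose in both lines and split in the line difference. Of 35 tested, 31 rose in MV-4-11 and 29 in MOLM-13, and 11 had a higher and 16 a lower line difference, with a median of -0.07. That was 77.1% called, against 35.8% of all genes tested and 47.0% of those with enough reads. GRN, the precursor of the granulins, had 1617 and 1574 CPM with BRM014 and 444 and 441 CPM with DMSO in MV-4-11, against 6011 and 6114 CPM with BRM014 and 445 and 490.4 CPM with DMSO in MOLM-13. The DMSO levels of the lines were alike, the ratio of MV-4-11 to MOLM-13 being 0.947, and the treated ratio was 0.263. Its difference between the lines was -1.85 ± 0.10 (SE, adjusted p = 9.0e-12). PSAP, the precursor of the saposins that help digest sphingolipids, and CTSD, a lysosomal protease, rose more in MOLM-13 as well, with line differences of -1.57 and -1.31. SQSTM1 (p62), an adaptor of autophagy, rose more in MV-4-11, by 4.68 against 3.14, and the opposite-strand gene MRNIP overlaps part of its exons. CTSH, another protease, rose by 1.83 in MV-4-11 and by 0.47 in MOLM-13. CD68, a lysosomal membrane protein of macrophages, rose by 1.63 in MV-4-11 and by 3.14 in MOLM-13.

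Cytokine and surface genes added single large differences. Of 25 inflammatory cytokine and chemokine genes tested, 6 had a higher and 3 a lower line difference. That was 36%, against 35.8% of all genes tested, and 15 of the 25 had at least 20 reads in all 4 groups. Those of this list named below were all higher. TNFSF10 (TRAIL), a death ligand and interferon target, had 31.2 and 30.0 CPM with BRM014 and 6.66 and 7.54 CPM with DMSO in MV-4-11, against 5.32 and 4.53 CPM with BRM014 and 12.2 and 11.0 CPM with DMSO in MOLM-13. OSM, a STAT5-driven cytokine, rose in both lines, by 5.27 in MV-4-11 and by 3.16 in MOLM-13. PTGS2, the inducible cyclooxygenase, rose by 3.42 and 1.15. TIMP1, an inhibitor of matrix proteases, had 128 and 138 CPM with BRM014 and 6.72 and 5.77 CPM with DMSO in MV-4-11, against 67.5 and 63.3 CPM with BRM014 and 44.2 and 56.8 CPM with DMSO in MOLM-13. CD44, the hyaluronan receptor, fell by 1.53 in MV-4-11 and by 4.56 in MOLM-13. In the adhesion and matrix list 11 of 28 were higher and 2 lower, and 18 of the 28 had at least 20 reads in all 4 groups. Its called share of 46.4% was near the 47.0% of all genes with enough reads (35.8% of all genes tested).

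Sugar use changed in parts. Of 24 glycolysis genes, 19 fell in MV-4-11 and 20 in MOLM-13. The line difference was higher for 13 and lower for 7 (83.3% called, against 47.0% of all genes with enough reads). The 7 became 4 without replicate 2 of treated MV-4-11. SLC2A3, the high-affinity glucose transporter GLUT3, had 312 and 312 CPM with BRM014 and 42.6 and 49.8 CPM with DMSO in MV-4-11, against 89.0 and 77.7 CPM with BRM014 and 220.4 and 256 CPM with DMSO in MOLM-13. This gave a line difference of 4.27 ± 0.13 (SE, adjusted p = 4.4e-15), and 0.44 at 24 h. SLC16A3, the lactate exporter MCT4, rose by 1.51 in MV-4-11 and fell by 0.74 in MOLM-13. TFRC, the transferrin receptor for iron uptake, rose by 0.88 in MV-4-11 and fell by 1.17 in MOLM-13. It is 1 of 24 NRF2 and iron genes tested, of which 8 had a higher and 7 a lower line difference (62.5% called, against 35.8% of all genes tested). NCOA4, of the same list, fell by 0.79 in MV-4-11 and rose by 0.58 in MOLM-13, with a line difference of -1.37. NQO1, a target of the oxidative stress factor NRF2, rose by 2.11 in MV-4-11 and had a log2 fold change of 0.24 in MOLM-13, which was not called. At 24 h NQO1 had risen in both lines, by 2.74 in MV-4-11 and by 2.76 in MOLM-13.

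The ATPases that BRM014 blocks differed in their response. SMARCA4, at 212 and 215 CPM with BRM014 and 278 and 279.6 CPM with DMSO in MV-4-11, and 225 and 214 CPM with BRM014 and 313 and 330.3 CPM with DMSO in MOLM-13, had a line difference of 0.16 ± 0.10, which was not called. SMARCA2, the paralogous ATPase, had 108 and 109 CPM with BRM014 and 182 and 184 CPM with DMSO in MV-4-11, against 138 and 143 CPM with BRM014 and 144.5 and 134 CPM with DMSO in MOLM-13. It fell by 0.75 in MV-4-11, with a log2 fold change of 0.01 in MOLM-13, and the line difference was -0.76 ± 0.09 (SE, adjusted p = 5.7e-07). Over 27 SWI/SNF subunit genes, 8 were higher and 5 lower, and 8 were lower in a fit to the 8 libraries alone. The called share of this list was 48.2%, near the 47.0% of all genes with enough reads (35.8% of all genes tested). Of 22 genes of the KMT2A fusion program, 7 were higher and 2 lower (40.9% called), and 11 were higher in a fit to the 12 libraries of these lines. The 2 lower ones were MYB and ZEB2. The count was 1 without replicate 1 of treated MV-4-11 or replicate 2 of MV-4-11 DMSO and 0 without replicate 2 of treated MV-4-11, replicate 1 of MV-4-11 DMSO, replicate 2 of treated MOLM-13 or replicate 2 of MOLM-13 DMSO. MYB fell by 0.51 in MV-4-11 and by 0.22 in MOLM-13, with a line difference of -0.30 ± 0.10 (adjusted p = 0.023) that was not called without either treated or either DMSO MV-4-11 library or without replicate 2 of treated or of DMSO MOLM-13. HOXA5, a homeobox gene of the program, rose by 0.54 in MV-4-11 and fell by 1.20 in MOLM-13. HOXA10 and HOXA11, with line differences of 1.26 and 1.48, share exon sequence with antisense genes. ID2, an inhibitor of basic helix-loop-helix factors, had the largest line difference among blood transcription factors, 4.30 ± 0.14, with 31.5 and 32.6 CPM with BRM014 and 2.97 and 3.28 CPM with DMSO in MV-4-11, against 25.7 and 22.5 CPM with BRM014 and 47.0 and 46.0 CPM with DMSO in MOLM-13.

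Some genes rose strongly in both lines. HMOX1, heme oxygenase, rose to 62.0 and 57.9 CPM in MV-4-11, against 0.616 and 0.832 CPM with DMSO, and to 63.4 and 62.4 CPM in MOLM-13, against 0.589 and 1.21 CPM, with a line difference of 0.21 ± 0.52 (adjusted p = 0.87). CTTN, cortactin, an actin-branching protein, rose to 142 and 143 CPM in MV-4-11, against 0.056 and 0.391 CPM with DMSO, and to 179 and 177 CPM in MOLM-13, against 3.21 and 4.55 CPM. Its line difference of 3.67 ± 0.36 was called (adjusted p = 8.1e-08, edgeR) but rests on 9 reads in MV-4-11 DMSO, and it was 2.95 without replicate 1 and 5.61 without replicate 2 of MV-4-11 DMSO. CD14, the lipopolysaccharide coreceptor of monocytes, had 3.28 and 3.70 CPM with BRM014 and 1.29 and 0.587 CPM with DMSO in MV-4-11 and at most 0.468 CPM in any MOLM-13 library. Its line difference of -1.10 ± 1.26 was not called.

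Genes that only 1 line used at a measurable level form a separate set. There were 700 genes with under 20 reads in both MOLM-13 groups that were called in MV-4-11, 352 of them up, and 726 with under 20 reads in both MV-4-11 groups that were called in MOLM-13, 364 of them up. A line difference is poorly determined for them. CD69, an activation marker of leukocytes, had 513 and 514 CPM with BRM014 and 109 and 104 CPM with DMSO in MV-4-11, and was at 0 in both treated MOLM-13 libraries, with 0.523 and 0.711 CPM with DMSO. LPL, lipoprotein lipase, fell to 29.3 and 27.0 CPM, against 266 and 272 CPM with DMSO, in MV-4-11, and CEACAM6, an adhesion protein of granulocytes, fell to 0.509 and 0.152 CPM, against 206 and 213 CPM. CEACAM6 was at 0 in all 4 MOLM-13 libraries, where 3 reads would have been 0.148 to 0.189 CPM. KCNE5, a potassium channel subunit, fell to 5.09 and 4.05 CPM, against 167 and 164 CPM. On the MOLM-13 side LAMP5, a lysosome-related membrane protein, fell to 164 and 151 CPM, against 416 and 428 CPM with DMSO. MATK, a kinase that acts on SRC family kinases, fell to 5.75 and 4.42 CPM, against 169.6 and 201 CPM. IGLL1, the surrogate light chain of early B cells, fell to 0.773 and 0.78 CPM, against 146 and 169 CPM.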

How the data were processed

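Cells were cultured acute myeloid leukaemia lines, and polyadenylated RNA was sequenced. The authors deposited raw read counts per gene symbol, 1 table per library, and HISAT2 2.1.0, HTSeq, DESeq2 and hg38 are named per the submitters' processing notes, without roles. The annotation and strand setting are not given in the sources used here. Of 28063 gene rows, 25815 were found in GENCODE v29, and the 5 summary lines of each table were left out of totals and tests (reads outside genes 12.03 to 19.2%, ambiguous reads 3.04 to 3.82% over all libraries).

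All 22 libraries were fitted together, 1 coefficient per group, with edgeR 4.0.16 (R 4.3.3): filterByExpr with a minimum count of 10, TMM factors, quasi-likelihood test, Benjamini-Hochberg adjustment over 16794 genes, threshold 0.05. CPM use TMM-scaled library sizes, except marker sums, which use plain totals. Standard errors were taken from the fold change and its F statistic. The code was tested on simulated data. Counting error alone puts the floor of 3 counts at 0.144 to 0.189 CPM.

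Named genes were the 10 largest line differences in each direction, 5 opposite genes in each direction, 4 genes per 1-line set, up to 4 called members per list, and 12 chosen genes; 1 gene of the 1-line set and some list members are not reported here. STAT2, IRF9, IFITM2, ATF4, VLDLR, MDM2, MPO, PMVK, SREBF2, FOS, DUSP1, ZEB2 and KIF20A were named after their values were seen. The members and lists were chosen with earlier results of these data known. Replicate numbers did not pair samples (correlations of deviations -0.029 to 0.0255). Replicates differed by more than counting noise (chi-square per degree of freedom 3.14 to 9.24). In bulk RNA, fewer cells of a kind and less RNA per cell cannot be told apart.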

Additional observations from a re-analysis of the deposited data

Results flagged for a closer look

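The share of reads outside annotated genes is listed because it moved in opposite directions: both treated MV-4-11 libraries lay below both of their DMSO libraries, and both treated MOLM-13 libraries lay above theirs. The change in MV-4-11 minus that in MOLM-13 was -6.25 percentage points. This difference was not tested.

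In 10 genes, chosen by rule for the largest opposite effects, the line difference was called and so was the effect in each line, in opposite directions. It was 6.98 for IFIT3, 6.42 for SLC16A6, 5.77 for OASL, 5.27 for MTSS1L and 4.40 for ROPN1L, which rose in MV-4-11 and fell in MOLM-13. It was -5.10 for VAMP7, -4.44 for PTPRCAP, -3.94 for LINC00482, -3.65 for MIR223 and -3.04 for RNASE2, which fell in MV-4-11 and rose in MOLM-13. VAMP7 differed between replicates of the same group, and all exon sequence of PTPRCAP overlaps CORO1B.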

How the results depend on the processing

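No count of called genes over the whole comparison moved by more than 1.5 times, and no gene called both there and in an alternative changed sign, under the alternatives run. The line difference was higher for 2983 to 3234 and lower for 2087 to 2275 genes when 1 library was left out, 3518 and 2515 by DESeq2, 2782 and 3188 with library size alone, 3477 and 2525 with DESeq2's size factors, 3572 and 2553 with no filter, 3965 and 3008 in the 12 libraries of both lines, and 3665 and 3281 in the 8 libraries alone. With a replicate block it was 3355 and 2385, although the numbers do not pair the samples. Without a library, 82.9 to 86.8% of the calls were kept, and otherwise 88.1 to 99.7%. Of 2085 values for 139 named genes, 2031 kept their direction and side of the threshold, 48 lost the call and 5 gained it. The 1 reversal was KCNE5 (3 reads in treated and 7 in DMSO MOLM-13), at 0.0086 without replicate 1 of treated MOLM-13, in a range of -4.49 to 0.0086 when 1 library was left out. Of 930 list counts 89 moved by over 1.5 times, among them the KMT2A fusion list, with 7 higher and 11 in the 12 libraries, the SWI/SNF list, with 5 lower and 8 in the 8 libraries, and the ribosomal proteins, with 1 higher and 14 in the 12 libraries. The cause was not tested. Depth limits line differences of genes with under 20 reads in a group.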
